A study of Mus musculus with 24 samples.

Results

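The 10 genes described here are p53 targets that take part in apoptosis: Bax, Bbc3, Pmaip1, Fas, Tnfrsf10b, Perp, Phlda3, Trp53inp1, Ei24 and Apaf1. They were chosen by gene symbol and were measured by 22 of the 25697 array probes, out of 17910 gene names on the array. Their signals were compared in lung parenchyma of 24 mice, 1 Illumina bead array per mouse. Mice of both sexes came from the AIRmax line, selected by breeding for strong acute inflammation, or from the AIRmin line, selected for weak acute inflammation. Each mouse had been given 2 intraperitoneal injections of urethane at 1 mg per g of body weight, or of saline, 48 h apart, and was killed 21 days later. Urethane is a chemical carcinogen widely used to raise lung tumours in mice. The 4 groups, AIRmax saline, AIRmax urethane, AIRmin saline and AIRmin urethane, held 6 mice each, 3 of each sex. Ages were not used here.

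p53 is a transcription factor that is stabilised after DNA damage and can turn on genes of cell cycle arrest, DNA repair and cell death. In the mitochondrial route to apoptosis, BH3-only proteins promote the activation of Bax, which permeabilises the outer mitochondrial membrane so that cytochrome c reaches Apaf1 and activates caspases. In the receptor route, ligands bind death receptors such as Fas at the cell surface. In the lung, urethane is converted by metabolism to products that form DNA adducts.

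Promoter sequences are shown for 3 of the genes whose signal was higher after urethane. RefSeq promoter sequences (GRCm38.p6) were held for 6 of the 10 genes in 8 windows, and each window ends at the base before an annotated transcript start. The windows were searched on both strands for the p53 half-site consensus, a palindrome of 10 bases, which occurs in 7.13% of 32851 promoters of the same length of 250 bases. It occurred in 2 of the 8 windows, those of Bax and Ei24, and is shown in capitals. Its first base lies at position -201 in Bax and -10 in Ei24, counted back from the start. No such letters were found in the window of Phlda3, which is printed for comparison because its signal differed most. The Bax window is chr7:45466899-45467148 on the minus strand, the Ei24 window chr9:36797335-36797584 on the minus strand, and the Phlda3 window chr1:135765835-135766084 on the plus strand. A match describes the letters in this window and is no evidence of binding.
Bax: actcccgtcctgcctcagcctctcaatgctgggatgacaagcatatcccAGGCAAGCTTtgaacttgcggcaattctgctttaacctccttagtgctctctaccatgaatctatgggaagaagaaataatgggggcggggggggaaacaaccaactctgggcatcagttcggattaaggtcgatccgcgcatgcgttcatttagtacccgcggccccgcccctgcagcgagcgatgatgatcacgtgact
Ei24: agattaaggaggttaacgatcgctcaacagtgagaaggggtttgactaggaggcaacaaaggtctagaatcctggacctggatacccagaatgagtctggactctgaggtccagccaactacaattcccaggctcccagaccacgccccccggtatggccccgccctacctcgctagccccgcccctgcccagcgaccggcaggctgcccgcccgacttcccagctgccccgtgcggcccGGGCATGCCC
Phlda3: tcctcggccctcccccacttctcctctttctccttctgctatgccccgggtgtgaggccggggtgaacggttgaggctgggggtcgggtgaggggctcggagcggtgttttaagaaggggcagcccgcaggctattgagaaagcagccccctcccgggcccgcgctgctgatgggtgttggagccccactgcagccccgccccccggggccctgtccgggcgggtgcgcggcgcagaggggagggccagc

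A probe was taken as above background where its log2 signal exceeded 7.905, a limit set from the dim end of all values, and it was tested where this held on at least 3 of the 24 arrays. That left 19 of the 22 probes and 9 of the 10 genes, among 18518 tested probes. The only Perp probe was not above the limit on any array, nor was 1 of 3 Fas probes or 1 of 5 Tnfrsf10b probes. A gene with several tested probes is given first by the one with the highest mean signal, and the other probes follow. Signals were compared within a probe only, since probes differ in brightness for reasons other than RNA level. Lung tissue of mixed cell types was measured, so fewer cells of a type and less RNA per cell cannot be told apart.

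The 7 listed markers of alveolar type 2 cells and the 3 of club cells were above background in every mouse, as were 3 or 4 of 5 markers of alveolar type 1 cells. Some lungs also held transcripts of other tissue, and between 2 and 10 of 11 markers of stratified squamous epithelium were above background in a mouse. A score for this tissue, the mean log2 signal of the markers relative to each gene's median over all mice, exceeded 1 in 10 mice: 1 AIRmax saline, 2 AIRmax urethane, 5 AIRmin saline and 2 AIRmin urethane mice. The score for hepatocytes was 5.84 in AIRmax urethane mouse 4 and did not exceed 0.43 in any other mouse. AIRmin saline mouse 20, labelled female, had an Xist signal of 7.91 and a Ddx3y signal of 12.8, both within the ranges of the 12 males (7.74 to 8.06 and 12.77 to 13.38). The 11 other females had Xist signals of 10.46 to 12.34. The mouse was kept under its label, and leaving out mouse 4 or mouse 20 changed no count of called members given below.

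The first comparison asked which of these genes differed between urethane and saline mice, averaged over both lines and sexes. Phlda3, Trp53inp1, Bax and Ei24 rose, by log2 differences of 1.06, 0.71, 0.54 and 0.29. Bbc3, Pmaip1, Fas, Tnfrsf10b and Apaf1 did not pass the test, and no tested member fell. The 4 called genes of 9 compare with 0.443% of all tested probes called higher and 0.275% called lower at an adjusted p under 0.05. At their brightest probes all 9 members had a difference above 0, as did 47% of all tested probes on the array. The members' median was 0.29 against -0.006 over all tested probes on the array. Over the 19 tested probes of the members, 6 were called higher and 18 had a difference above 0, with a median of 0.19. The members were chosen with earlier results of these data known, so these shares describe them and are no independent test.

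**Figure D1:**
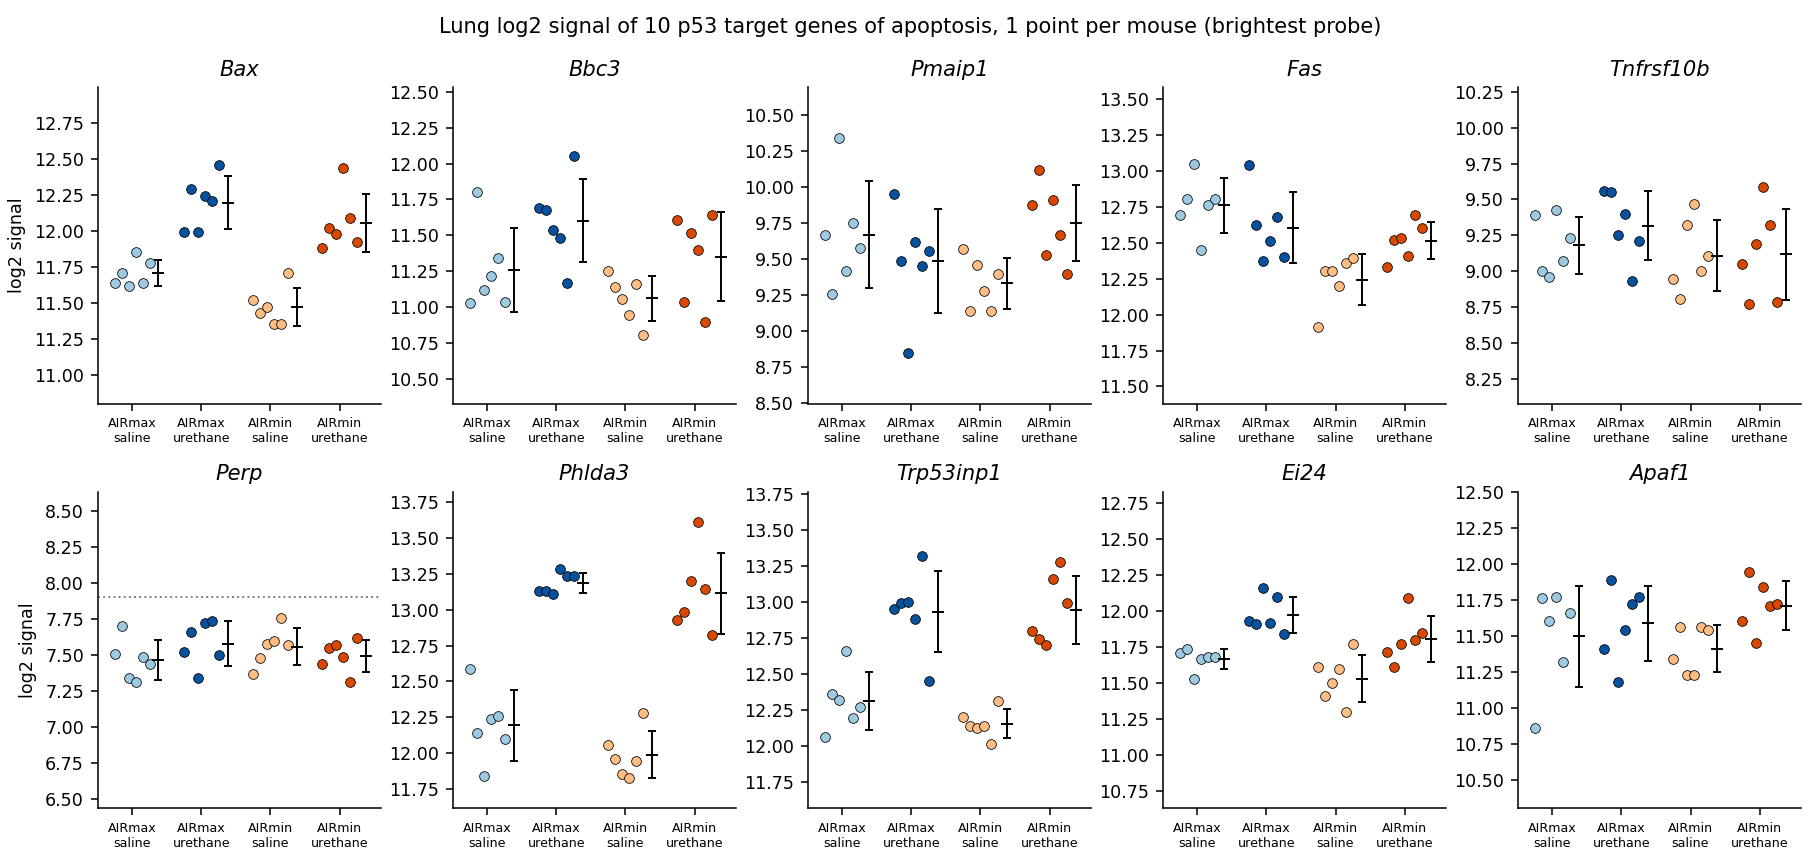
Log2 signal of the 10 genes at their brightest probe, 1 point per mouse (n = 6 per group), with the group mean and SD at the right of each group. Every panel spans the same log2 range, and the dotted line in the Perp panel is the background limit; Phlda3 and Bax show no overlap between urethane and saline mice, whereas all Perp values lie below the limit.

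Phlda3 (gene ID 27280, chromosome 1, 135766085 to 135769134), whose product binds membrane phosphoinositides and restrains Akt survival signalling, differed most. Its log2 signal ran from 11.84 to 12.59 (median 12.19) in AIRmax saline mice and from 13.11 to 13.28 (median 13.18) in AIRmax urethane mice. AIRmin saline mice lay between 11.83 and 12.28 (median 11.96) and AIRmin urethane mice between 12.82 and 13.61 (median 13.06). Every urethane mouse of either line was thus above every saline mouse, a separation of 12 against 12 mice that was met by 0.0702% of tested probes. The log2 difference was 1.06 ± 0.07 (SE), a 2.08-fold higher signal, with an adjusted p of 8.04e-09. The 6 AIRmax urethane mice differed little from each other, with an SD of 0.071, while the 6 AIRmin urethane mice had an SD of 0.281.

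The second Phlda3 probe gave a similar mean difference, 1.13 ± 0.21 (adjusted p = 0.0118), but a different spread. In AIRmin saline mice it read 9.93 to 10.26 in mice 3, 18 and 19 and 11.02 to 11.21 in mice 10, 20 and 23. In AIRmin urethane mice it read 10.90 to 11.03 in mice 7, 15 and 17 and 12.45 to 12.65 in mice 8, 13 and 14. Each AIRmin group therefore fell into 2 sets of 3 mice, with gaps of 0.76 and 1.42 between the sets. In AIRmax the widest gap set off a single mouse in each group, 0.62 in saline and 0.26 in urethane mice. The brighter probe did not separate those AIRmin mice, and the cause of the gaps was not tested.

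**Figure D2:**
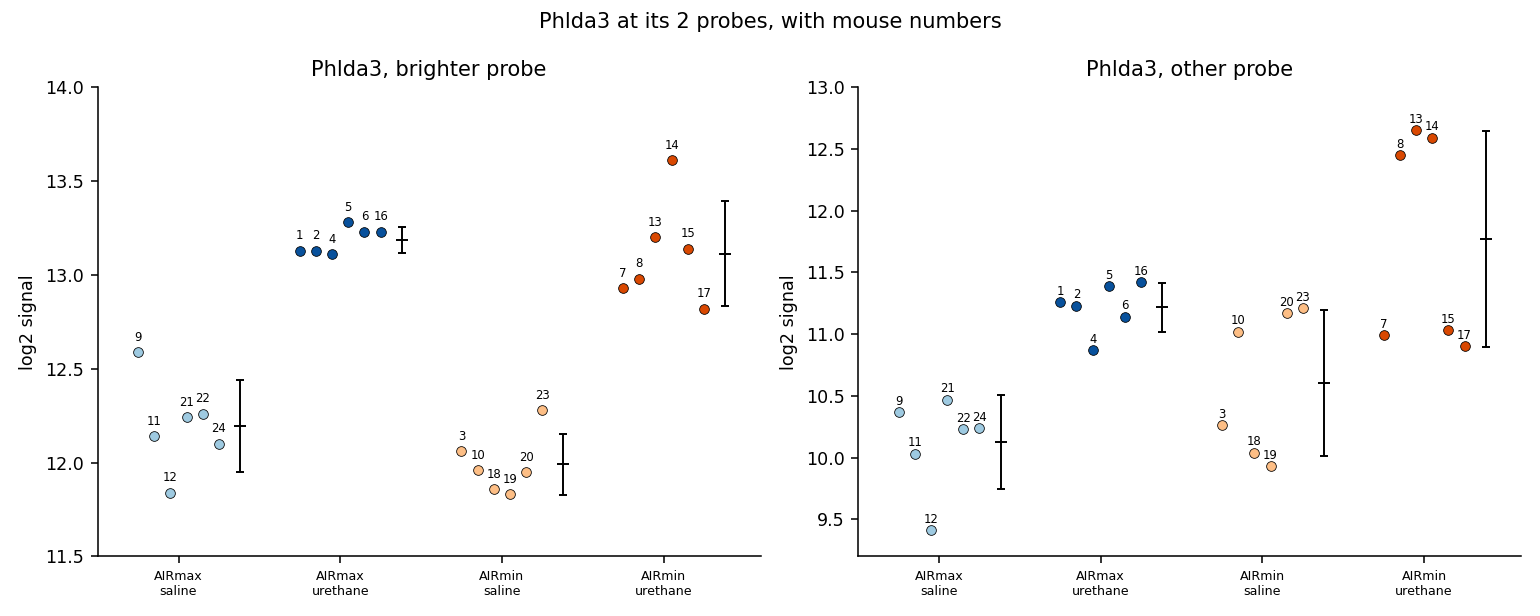
Log2 signal of Phlda3 at its 2 probes, with the mouse number over each point and the group mean and SD at the right of each group (n = 6). At the dimmer probe each AIRmin group falls into 2 sets of 3 mice, while at the brighter probe the same mice are mixed.

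Trp53inp1 (gene ID 60599, chromosome 4, 11156441 to 11174379), which encodes a stress-induced nuclear protein that promotes p53-dependent apoptosis and autophagy, came next. Its signal was 12.06 to 12.66 (median 12.30) in AIRmax saline and 12.45 to 13.32 (median 12.97) in AIRmax urethane mice. In AIRmin it was 12.01 to 12.31 (median 12.14) with saline and 12.70 to 13.28 (median 12.89) with urethane. The treatments overlapped by 1 mouse on each side: 11 of 12 urethane mice were above every saline mouse. The difference was 0.71 ± 0.08 (1.63-fold, adjusted p = 8.84e-05), and the second probe gave 0.72 ± 0.11 (adjusted p = 0.00097).

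Bax (gene ID 12028, chromosome 7, 45461695 to 45466903), the pore-forming effector of the BCL2 family, was 11.62 to 11.85 (median 11.67) in AIRmax saline mice. AIRmax urethane mice read 11.99 to 12.46 (median 12.22). The AIRmin mice read 11.35 to 11.71 (median 11.45) with saline and 11.88 to 12.44 (median 12.00) with urethane. As for Phlda3, no urethane mouse overlapped a saline mouse. The log2 difference was 0.54 ± 0.06, or 1.45-fold, with an adjusted p of 7.25e-05.

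Ei24 (gene ID 13663, chromosome 9, 36779153 to 36797334), an endoplasmic reticulum membrane protein induced by p53 in cells under genotoxic stress, had the smallest of the called differences. Its signal was 11.53 to 11.74 (median 11.68) in AIRmax saline and 11.84 to 12.16 (median 11.93) in AIRmax urethane mice. In AIRmin it was 11.30 to 11.77 (median 11.55) with saline and 11.61 to 12.09 (median 11.79) with urethane. In AIRmax the treatments did not overlap, whereas in AIRmin they did. The difference over both lines was 0.29 ± 0.06 (1.22-fold, adjusted p = 0.0139).

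These calls depended on which mice were kept. Without the 10 mice whose squamous or hepatocyte scores exceeded 1, only Phlda3 was called, at 1.24 ± 0.13 (adjusted p = 0.00136). Bax (0.60 ± 0.11, adjusted p = 0.111), Trp53inp1 (0.74 ± 0.18, adjusted p = 0.242) and Ei24 (0.30 ± 0.10, adjusted p = 0.406) kept differences of about the same size with larger errors. That fit held 14 mice, only 1 of them AIRmin saline. All 4 remained called with the squamous score, or 3 tissue scores, in the model.

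Markers of other cell types were read in the same comparison. Of the 3 tested ciliated cell markers 1 was called, Tppp3, which fell by 0.49 ± 0.07 (adjusted p = 0.00101). The 3 tested B cell markers each had an unadjusted p under 0.05 and a median difference of -0.34, and none was called; Cd79b differed by -0.48 ± 0.11 (adjusted p = 0.0512). Among 5 tested neutrophil markers, S100a8 differed by -0.62 ± 0.27 (adjusted p = 0.354) and S100a9 by -0.82 ± 0.35 (adjusted p = 0.345), and none of the 5 was called. In AIRmax, ciliated scores ran from -0.01 to 0.37 with saline and from -0.22 to 0.07 with urethane, B cell scores from -0.40 to 0.74 and from -0.51 to 0.18, and neutrophil scores from -0.15 to 3.27 and from -0.41 to 2.54. In AIRmin the same ranges were 0.01 to 0.18 and -0.24 to 0.00 for ciliated cells, 0.03 to 0.31 and -0.47 to 0.03 for B cells, and -0.36 to 0.87 and -1.25 to 0.25 for neutrophils. In AIRmin the ciliated scores did not overlap between the treatments and the B cell scores met at 0.03, and the other ranges overlapped. The part of these cells in the differences of the members was not tested.

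The BH3-only genes gave differences that did not pass the test. Bbc3, which encodes PUMA, differed by 0.32 ± 0.10 (adjusted p = 0.159), with signals of 10.81 to 11.80 in saline and 10.90 to 12.05 in urethane mice. Its 2 dimmer probes differed by 0.08 and 0.09, so the probes did not give the same size. Those 2 had mean signals of 8.4 and 8.03, near the background limit, against 11.32 at the brightest probe. The dimmest was above the limit in 16 of 24 mice. Pmaip1, which encodes NOXA, differed by 0.12 ± 0.12 (95% interval -0.13 to 0.37, adjusted p = 0.737). The upper bound of that interval, over both lines, lay below the Bax difference of 0.54. In AIRmin alone the Pmaip1 interval was 0.07 to 0.77, which holds the Bax difference of 0.58 in that line. Pmaip1 and Bax were not tested against each other, and their probes differ in brightness. At the brighter Pmaip1 probe saline mice read 9.14 to 10.34 and urethane mice 8.85 to 10.12, a wide overlap. The second Pmaip1 probe differed by 0.10 ± 0.07 over both lines (adjusted p = 0.564).

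Among death receptors, Fas differed by 0.06 ± 0.08 between the treatments (95% interval -0.10 to 0.22, adjusted p = 0.80), and its second probe by -0.04. Tnfrsf10b, the mouse receptor for the death ligand TRAIL, differed by 0.07 ± 0.08 (interval -0.09 to 0.23, adjusted p = 0.75). One of its dimmer probes, with signals near the background limit, gave 0.24 ± 0.09 (adjusted p = 0.246). Apaf1, the scaffold of the caspase-activating apoptosome, differed by 0.19 ± 0.10 (interval -0.02 to 0.40, adjusted p = 0.454) and by 0.22 at its second probe. None of these 3 genes passed the test at any probe.

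Perp encodes a tetraspan protein of desmosomes that is abundant in stratified epithelium. Its only probe read 7.31 to 7.76 over the 24 mice and did not exceed the background limit in any of them. In the 10 mice with a squamous score above 1, where the squamous keratin gene Krt13 read 11.63 to 15.88, Perp read 7.34 to 7.76. In the other 14 mice Krt13 read 7.28 to 7.67 and Perp 7.31 to 7.74. The Perp probe thus gave no measurable signal in lungs that held squamous transcripts, and no statement on its RNA level can be made from it.

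The second comparison took each line alone. At their brightest probes Phlda3, Trp53inp1 and Bax were called in AIRmax and in AIRmin, and Ei24 in neither. The second Phlda3 probe was called in neither line. It gave 1.09 ± 0.30 in AIRmax (adjusted p = 0.212) and 1.16 ± 0.30 in AIRmin (adjusted p = 0.15). The second Trp53inp1 probe was not called in AIRmax, at 0.54 ± 0.15 (adjusted p = 0.22). In AIRmin it was called, at 0.91 ± 0.15 (adjusted p = 0.00629). In AIRmax, where 0.151% of all tested probes were called higher and 0.054% lower, the differences were 0.99 ± 0.10 for Phlda3 (adjusted p = 7.21e-06), 0.62 ± 0.12 for Trp53inp1 (adjusted p = 0.0326) and 0.49 ± 0.09 for Bax (adjusted p = 0.0187). Phlda3, Bax and Ei24 did not overlap between the treatments in this line, which held for 0.248% of tested probes in this direction. The AIRmax call of Bax was lost on leaving out any one of mice 2, 5, 6, 9, 12, 16, 22 and 24 (adjusted p up to 0.0753). That of Trp53inp1 was lost without any one of mice 1, 2, 6, 9, 11, 12, 22 and 24 (adjusted p up to 0.135). With the squamous score in the model Trp53inp1 was not called in AIRmax (0.62 ± 0.13, adjusted p = 0.062), and with 3 tissue scores it was still called. On leaving out single mice the log2 differences of Bax and Trp53inp1 stayed between 0.44 and 0.55 and between 0.55 and 0.71 respectively.

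In AIRmin, where 0.205% of tested probes were called higher and 0.054% lower, Phlda3 differed by 1.12 ± 0.10 (adjusted p = 1.66e-06). Trp53inp1 differed by 0.79 ± 0.12 and Bax by 0.58 ± 0.09, each with an adjusted p of 0.00236. At the brightest probes all 3 were separated without overlap, as were 0.697% of tested probes. At the second Phlda3 probe only 3 of 6 urethane mice were above every saline mouse. No member was called in AIRmin without the mice of high tissue scores, where Phlda3 differed by 1.38 ± 0.22 (adjusted p = 0.11) against 1 saline mouse. The squamous score moved with treatment in this line: it exceeded 1 in 5 of 6 saline and 2 of 6 urethane mice. With that score in the model all 3 remained called, and with 3 tissue scores Bax reached an adjusted p of 0.0557.

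**Figure D3:**
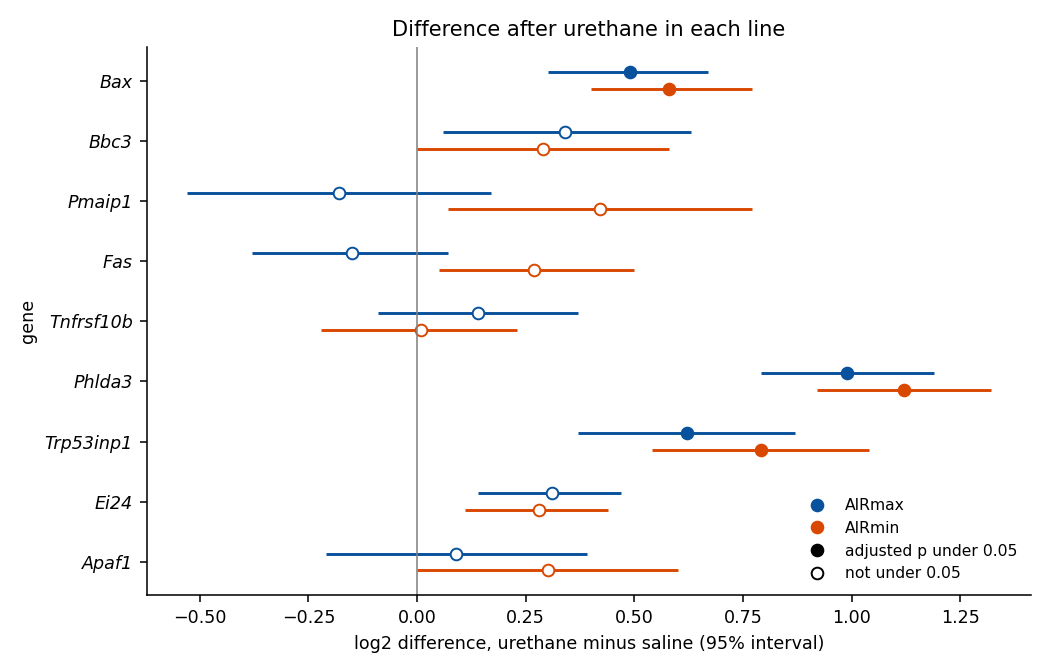
Log2 difference between urethane and saline mice in each line for the 9 tested genes at their brightest probe, with 95% intervals from the model; filled points have an adjusted p under 0.05. Phlda3, Trp53inp1 and Bax are filled in both lines. Overlap of the intervals of the 2 lines is not a test of their difference, which the interaction test gives.

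The third comparison asked whether the response to urethane differed between the lines. No member passed the interaction test, and neither did any of the 18518 tested probes with limma, of which 1166 had an unadjusted p under 0.05. The effect in AIRmax minus that in AIRmin was -0.13 for Phlda3 (95% interval -0.41 to 0.15), -0.17 for Trp53inp1 (-0.53 to 0.18), -0.09 for Bax (-0.35 to 0.17) and 0.03 for Ei24 (-0.20 to 0.27). Each interval includes 0.

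Fas and Pmaip1 had the lowest interaction p-values among the members. Fas differed by -0.15 ± 0.11 after urethane in AIRmax and by 0.27 ± 0.11 in AIRmin, an interaction of -0.42 ± 0.15 (unadjusted p = 0.012, adjusted p = 0.668). Its second probe gave -0.48 ± 0.14 (unadjusted p = 0.00328, adjusted p = 0.668). Pmaip1 differed by -0.18 ± 0.17 in AIRmax and 0.42 ± 0.17 in AIRmin, an interaction of -0.60 ± 0.24 (unadjusted p = 0.0206, adjusted p = 0.681). Neither gene passed the adjusted test. For sex, no member and no tested probe passed the test of a different urethane effect, with 1194 probes at an unadjusted p under 0.05.

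The fourth comparison set the lines against each other under the same treatment. In saline mice Fas alone among the members was called, and it was higher in AIRmax; 3.33% of all tested probes were called higher in AIRmax and 3.39% lower, and a single call among 9 is no result about the members as a group. Fas signals were 12.45 to 13.05 (median 12.78) in AIRmax saline and 11.91 to 12.39 (median 12.30) in AIRmin saline mice. The groups did not overlap, which held for 1.98% of tested probes in this direction. The difference was 0.52 ± 0.11 (1.43-fold, adjusted p = 0.00706), and the second probe gave 0.50 ± 0.10 (adjusted p = 0.00526). After urethane the groups overlapped, at 12.37 to 13.04 in AIRmax and 12.33 to 12.69 in AIRmin, and Fas differed by 0.09 ± 0.11 (adjusted p = 0.723).

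Several tissue and cell scores also differed between the 2 groups of saline mice, so their part in the Fas difference cannot be told apart from line. Among saline mice, 1 of 6 in AIRmax and 5 of 6 in AIRmin had a squamous score above 1, and endothelial scores ran from -0.01 to 0.32 and from -0.22 to -0.03. Skeletal muscle scores had medians of -1.90 and 1.79, with 7 of 11 tested markers called lower in AIRmax. Neutrophil scores had medians of 0.93 and -0.25, with 1 of 5 tested markers called higher. T cell scores had medians of 0.32 and -0.10, with none of 5 markers at an unadjusted p under 0.05. With the squamous score in the model the difference in Fas was 0.43 ± 0.14 (adjusted p = 0.162), with 3 tissue scores 0.43 ± 0.16 (adjusted p = 0.23), and without the mice of high scores 0.33 ± 0.24 (adjusted p = 0.717). The 1 AIRmin saline mouse of low score read 12.30, below the 5 AIRmax saline mice of low score at 12.45 to 13.05. The 1 AIRmax saline mouse of high score read 12.69, and the 5 AIRmin saline mice of high score read 11.91 to 12.39. At the second probe the AIRmax saline mouse of high score read 11.42, below the 5 of low score at 11.52 to 11.7. There the AIRmin saline mouse of low score read 11.23 and the 5 of high score 10.69 to 11.32. Within each line this split rests on 1 mouse on 1 side. The part of endothelial cells, neutrophils and T cells, each taken alone, in the difference was not tested.

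**Figure D4:**
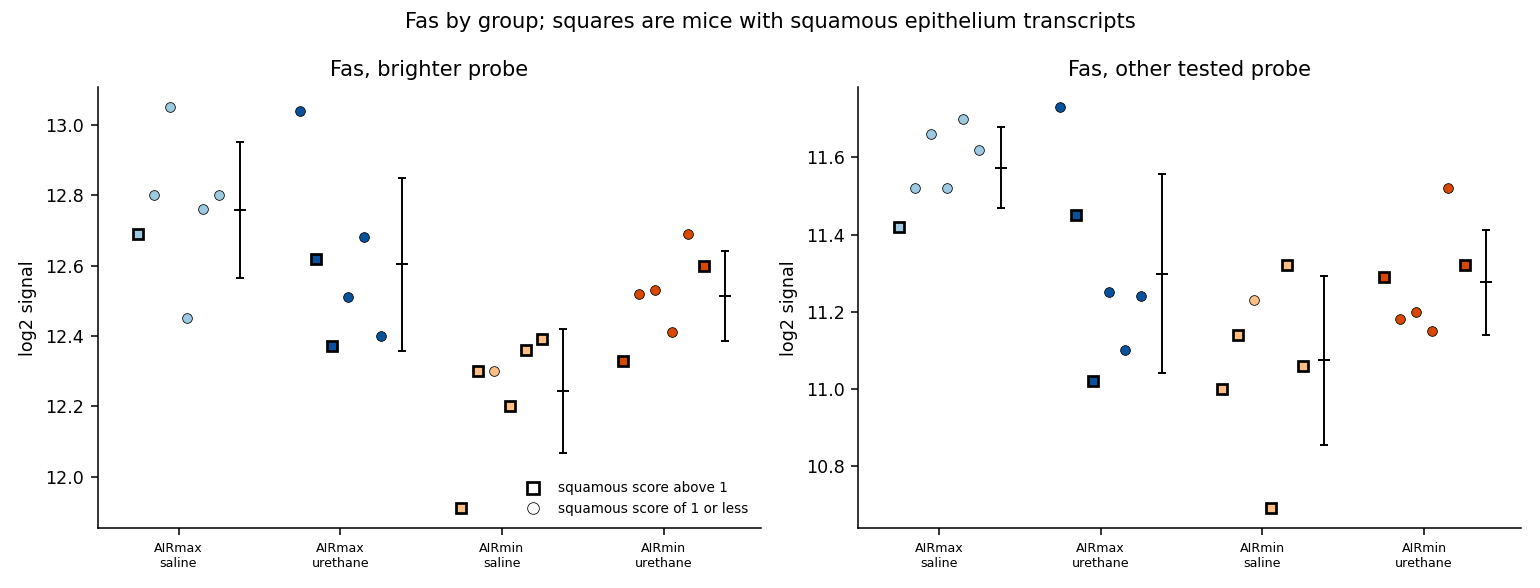
Log2 signal of Fas at its 2 tested probes, 1 point per mouse with the group mean and SD (n = 6); squares mark mice whose squamous score exceeded 1. AIRmax saline mice lie above AIRmin saline mice at both probes, and 5 of the 6 AIRmin saline mice are squares.

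The other members gave saline line differences that did not pass the test, of which Bax was closest at 0.24 ± 0.09 (adjusted p = 0.126). At their brightest probes all 9 tested members had higher mean signals in AIRmax than in AIRmin saline mice, with a median difference of 0.20. They were read in the same mice, whose squamous and skeletal muscle scores also differed between the lines. The part of that tissue in this shared direction cannot be told apart from line. Of all tested probes on the array, 54.4% had a difference above 0. Over all 19 tested probes of the members, 16 had a difference above 0, with a median of 0.10. The second Phlda3 probe went the other way, at -0.48 ± 0.30 (adjusted p = 0.407). After urethane no member was called between the lines, against 1.59% of tested probes called higher in AIRmax and 2.01% lower. At the brightest probes, the largest of these differences in size was that of Pmaip1, at -0.26 ± 0.17 (adjusted p = 0.441). The second probes of Phlda3 and Trp53inp1 gave -0.55 ± 0.30 (adjusted p = 0.348) and -0.33 ± 0.15 (adjusted p = 0.251).

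Other parts of the death machinery were measured as lists, averaged over both lines. The 10 members were kept out of these lists. Bax, which was called, Bbc3 and Pmaip1 are therefore not counted in the BCL2 family. Likewise Apaf1 is not counted with the apoptosome genes, nor Fas and Tnfrsf10b with the death receptor genes. Of the BCL2 family, 12 of 15 listed genes were tested and none was called after urethane, with a median difference of 0.06. The lowest p in that list belonged to Bcl2l1, which encodes the survival protein BCL-XL, at 0.30 ± 0.13 (adjusted p = 0.347), followed by Bmf, a BH3-only gene, at 0.15 ± 0.07 (adjusted p = 0.422). Of the apoptosome genes, caspases and their inhibitors, none of 14 tested was called (median 0.04). Dffa, which encodes the inhibitor of the caspase-activated DNase, differed by 0.15 ± 0.05 (adjusted p = 0.152). Of the death receptor signalling genes, none of 9 tested was called (median 0.04), among them the Fas ligand gene Fasl at 0.13 (adjusted p = 0.473) and the receptor gene Tnfrsf26 at -0.10 (adjusted p = 0.565). At an unadjusted p under 0.05 the counts in these lists were 1, 2 and 0, against 2315 of all 18518 tested probes.

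Among 8 tested genes of another list, p53 targets tied to cell death, 2 rose and none fell, with a median of 0.13. Zmat3, which encodes an RNA-binding zinc finger protein, rose by 0.61 ± 0.08 (adjusted p = 0.000142). In AIRmax its median signal was 11.35 with saline and 11.98 with urethane, and in AIRmin 11.15 and 11.86. Aen, which encodes an apoptosis-enhancing nuclease, rose by 0.32 ± 0.05 (adjusted p = 0.0025) at its brightest probe, and differed by 0.21 ± 0.06 (adjusted p = 0.105) and -0.03 ± 0.05 (adjusted p = 0.854) at 2 others. Aen signals were near the background limit of 7.905: the brightest probe read 7.84 to 8.12 in AIRmin saline mice, and the 2 others were dimmer. The probes of Aen did not give the same size, and their mean did not pass the test (Aen, 0.17 ± 0.04, adjusted p = 0.0902). For comparison, 4 of 8 tested p53 targets of cell cycle arrest rose, and 1 of 11 genes of p53 itself and its regulators.

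**Figure D5:**
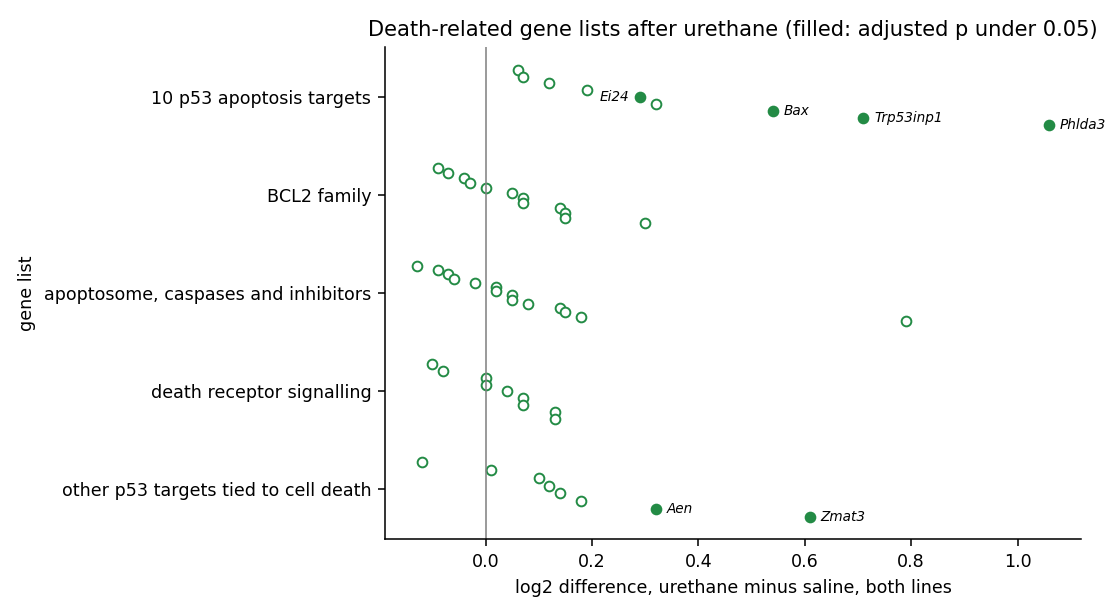
Log2 difference between urethane and saline mice over both lines for each tested gene of the 10 p53 apoptosis targets and of 4 related lists, 1 point per gene at its brightest probe. Filled and named points have an adjusted p under 0.05 over all tested probes. The 10 members, Bax of the BCL2 family among them, are left out of the 4 related lists. With the members left out, no point is filled in the lists of BCL2 family, caspase or death receptor genes.

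Likeness of pattern was measured as the root-mean-square difference between z-scored signals over the 24 mice, among 12660 genes, where 0 is identical. The genes most like Phlda3 were Gdf15, a secreted stress cytokine, at 0.30 and Cdkn1a, the p53-induced inhibitor of cyclin-dependent kinases, at 0.34. Bax was most like Phlda3 at 0.42 and Exoc4, a subunit of the exocyst, at 0.44. Trp53inp1 was most like Sesn2, a stress-induced sestrin, and Exoc4, both at 0.48. Ei24 was closest to Ctnnbip1, an inhibitor of beta-catenin, at 0.53, with Phlda3 next at 0.62. For the 5 members that were not called, no gene came nearer than 0.61, the distance between Fas and Chst15. Genes that share a clear treatment difference lie near each other by this measure, so the contrast with the called members is no separate result.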

How the data were processed

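Illumina bead arrays, 1 for each of 24 mice, measured lung RNA. Groups and mouse numbers came from the sample titles. The deposited intensity values of the series' value table were used. Their sorted values differed by at most 0.871% between arrays, so they were taken as already quantile normalized. BeadStudio is named, without a version, in the submitters' processing notes. How the authors treated background is not given in these sources. In the deposited tables, 72 other per-array columns, named by slide, matched no label and were not used. No batch term for slide could be fitted.

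Values were log2 transformed. The background limit (log2 7.905) is the 0.99 quantile of a normal curve with the mode of all values (7.41) and the SD of values below it (0.2127). Old gene symbols were updated through a RefSeq table (4122 of 25697 probes); 1135 kept the deposited name. The model was fitted by lmFit and eBayes of limma 3.58.1 under R 4.3.3, with a mean for each of 8 cells of line, sex and treatment, 3 mice each. Benjamini-Hochberg adjustment covered all 18518 tested probes, and a call is an adjusted p under 0.05. Errors are the model's SE. The number of arrays limits the precision. The test was checked on simulated data.

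Named list genes are up to 4 called genes per list in the urethane comparison of both lines, or the 2 of lowest p where none was called. One gene taken by this rule is not reported here. The members and lists were chosen with earlier results of these data known. Alternatives were an offset, 3 other probe filters, normexp correction, array weights, a trended robust prior, a fit without sex, fits to the compared arrays alone, tissue scores as covariates, leaving out mice, and the mean of a gene's probes.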

Additional observations from a re-analysis of the deposited data

Results flagged for a closer look

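In each group of 6 mice, the highest or lowest mouse was compared with its neighbours by Dixon's ratio, with a critical value of 0.625. Of 76 pairs of probe and group, 4 held a mouse that stood apart; chance gives about 1 in 20. Ei24 in AIRmax saline mouse 12 had a log2 signal of 11.53, where the 5 others read 11.67 to 11.74. The other 3 were dimmer probes of Tnfrsf10b. Mouse 12 read 8.74 in AIRmax saline, where the others read 8.33 to 8.46. Mouse 7 read 8.08 in AIRmin urethane, where the others read 8.19 to 8.24. Mouse 10 read 8.06 in AIRmin saline, where the others read 7.80 to 7.90. No call of Ei24 over both lines was lost when any single mouse was left out, with adjusted p-values of 0.00449 to 0.0332.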

How the results depend on the processing

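The tests were repeated under 13 alternatives and with each mouse left out in turn, giving 2295 values for the members. Of these, 2211 kept their direction and side of the threshold, 31 lost a call (16 of them on leaving out 1 mouse), 2 gained one, and 51 changed sign while below the threshold in both. The count of called members in both lines, 4, became 1 without mice of high tissue scores and stayed at 4 without any single mouse. In AIRmax the 3 became 1 with only the arrays compared, 1 without mice of high scores, 1 to 3 without single mice, and 2 with the squamous score, where Trp53inp1 was not called. In AIRmin the 3 became 0 without mice of high scores. Between saline mice the 1 became 2 with array weights, where Bax joined Fas (0.28, adjusted p = 0.0122), and 0 with the squamous score, with 3 scores and without mice of high scores. Ei24 was called in AIRmin with array weights (0.33, adjusted p = 0.0361).

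Values that changed sign, none of them called, were as follows. Without mice of high scores, Pmaip1 (0.01) and Apaf1 (-0.03) in AIRmax, Bbc3 (-0.10) and Tnfrsf10b (-0.04) in AIRmin, Ei24 in the line interaction (-0.03), and Bax (-0.10) and Apaf1 (-0.30) in the sex interaction. With the squamous score, Apaf1 in the saline line difference (-0.06), and Bax (0.01), Bbc3 (-0.05) and Ei24 (-0.03) in the line interaction. With 3 scores, Trp53inp1 in the urethane line difference (0.02), and Bax (0.02), Bbc3 (-0.08) and Ei24 (-0.04) in the line interaction. With the mean of a gene's probes, Phlda3 between the lines (-0.14 with saline, -0.24 with urethane) and Tnfrsf10b in the line (-0.04) and sex (-0.02) interactions. With array weights, Ei24 in the line interaction (-0.05). Without single mice, the ranges that crossed 0 were -0.06 to 0.17 for Apaf1 in AIRmax, -0.09 to 0.07 for Tnfrsf10b in AIRmin and -0.03 to 0.14 between saline mice, -0.10 to 0.07 for Trp53inp1 between urethane mice and -0.10 to 0.05 in the sex interaction, -0.04 to 0.15 for Bbc3 and -0.02 to 0.10 for Ei24 in the line interaction, and -0.04 to 0.07 for Ei24 in the sex interaction. The cause was not tested.

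Counts over all tested probes moved too. The 133 called in both lines became 500 with array weights, 19 without mice of high scores and 86 to 200 without single mice (200 without mouse 4, 86 without mouse 24). The 38 in AIRmax became 20 with only the arrays compared, 71 with weights, 15 without mice of high scores and 18 to 45 without single mice. The 48 in AIRmin became 178 with weights, 29 with the squamous score, 31 with 3 scores, 1 without mice of high scores, 31 with the mean of a gene's probes and 28 without mouse 20. The 1244 between saline mice became 810 with the authors' probe list, 3061 with weights, 306 and 285 with scores, 69 without mice of high scores and 690 without mouse 20. The 667 between urethane mice became 343 with only the arrays compared and 360 without mice of high scores. The 0 of the line interaction became at most 2, and the 0 of the sex interaction 39 without mice of high scores. No paired analysis was possible because no mouse number occurred in more than 1 group.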

Other observations

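Outside the response to urethane, 4 genes of the other death lists differed between the lines, and they are named here after their values were seen. Among saline mice 2 of 12 tested BCL2 family genes were called and none of the 14 caspase and 9 death receptor genes, where 3.33% of all tested probes were called higher and 3.39% lower. Among urethane mice 1 of 12, 2 of 14 and none of 9 were called, where the shares of all probes were 1.59% and 2.01%. Bcl2l1 was higher in AIRmax than in AIRmin saline mice by 0.78 ± 0.19 (adjusted p = 0.0159), and its 2 other probes gave 0.64 ± 0.17 (adjusted p = 0.0302) and 0.48 ± 0.16 (adjusted p = 0.0736). The call was lost without mouse 20 (adjusted p = 0.0501), with the squamous score in the model (0.221), with 3 tissue scores (0.126) and without mice of high scores (0.494). Bid, which encodes a BH3-only protein that caspase-8 cleaves, was higher in AIRmax by 0.58 ± 0.14 with saline (adjusted p = 0.0168; 0.0512 without mouse 24) and by 0.70 ± 0.14 with urethane (adjusted p = 0.00557). Its second probe gave 0.01 ± 0.08 and -0.18 ± 0.08, so the probes of Bid disagreed. The saline call of Bid was lost with the squamous score (adjusted p = 0.109), with 3 scores (0.196) and without mice of high scores (0.0623). Its urethane call was lost with 3 scores (adjusted p = 0.0652) and with the mean of its probes (0.26, adjusted p = 0.0567).

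Casp9, the initiator caspase of the apoptosome, differed between the lines after urethane in opposite directions at its probes. The brightest read 3.03 ± 0.59 higher in AIRmax (adjusted p = 0.00488), a second read -0.58 ± 0.10 (adjusted p = 0.00188) and the other -0.11 ± 0.09 (adjusted p = 0.584). Its direction is therefore uncertain, and the call of the brightest probe was lost without mice of high scores (2.37 ± 0.77, adjusted p = 0.147). Casp2 was lower in AIRmax than in AIRmin urethane mice, with a log2 difference of -0.22 ± 0.06 (adjusted p = 0.0371), and the call was lost on leaving out any one of 8 mice (mice 1, 4, 7, 13, 14, 15, 16 and 17, adjusted p up to 0.0896). It was also lost with only the arrays compared, with array weights, with 3 scores and without mice of high scores (adjusted p of 0.0584 to 0.216).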
